A study of Mus musculus with 30 samples.

Results

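The proteasome genes of the mouse were followed through liver, kidney and brain. Members were the genes whose platform symbol starts with Psma, Psmb, Psmc, Psmd, Psme, Psmf or Psmg and a digit, without Psmb8 and Psmb9. Each gene was read by the strongest of its probe sets that carry 1 symbol. The pattern found 47 of the 18193 genes on the array, with 100 probe sets. Of these, Psmc3ip, a recombination factor, and Psme3ip1, a binding partner of Psme3, are named after a proteasome gene but are not part of the particle, which left 45. Psme2 was not among them because its probe set carries 2 symbols.

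The arrays came from 10 males, all with the agouti viable yellow allele over nonagouti (Avy/a), at an age of 22 days. No mouse without the Avy allele was measured, and no treatment is named. Coats ranged in 5 classes from yellow over slightly, plainly and heavily mottled to pseudoagouti. Each class had 2 mice, which the labels number 1 and 2 without saying what the number stands for. The allele arose in the C3H/HeJ strain and the colony was kept by sibling mating with forced heterozygosity. Liver, kidney and brain of each mouse were hybridised to 1 Affymetrix 430 2.0 array each, giving 30 arrays in all, and values are MAS5 signals, a scaled brightness with no unit.

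The proteasome degrades proteins that carry a ubiquitin tag. Its core is a stack of rings, with alpha subunits (Psma) at the gates and beta subunits (Psmb) that hold the cutting sites inside. A cap made of ATPases (Psmc) and other subunits (Psmd) binds, unfolds and feeds the substrate, while other activators (Psme) can take the place of the cap, and the chaperones Psmg1 to Psmg4 help to build the core. When proteasome activity is short, the transcription factor Nfe2l1 is known to raise the genes of many subunits together through antioxidant response elements in their promoters.

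Because the genes were read for how they move together, their promoters were searched first. The RefSeq table (GRCm38.p6) held 37 of the 45 genes, with 39 promoters from 250 bases before to 50 bases after the start. The antioxidant response element, searched as TGACNNNGC on both strands, was present in 15.4% of these promoters and in 12.4% of all 32851 promoters in the table. It occurred in Psmd9, Psme4, Psmb6, Psmd12, Psmc6 and Psmb5. The GC box GGGCGG was in 53.8% against 35.7%, the letters CCAAT in 33.3% against 37.4%, and GAAA with any 2 letters before a second GAAA, as in the element that interferon-regulated factors bind, in 12.8% against 3.44%, all on both strands. The last was found in Psmd4, Psmd9, Psmb3, Psmg4 and Psme1. The heat shock element, searched as GAA, TTC and GAA with any 2 letters between, was in 0 of the 39 and in 0.603% of all.
The 100 bases before the start are shown for 2 catalytic subunits that hold the antioxidant element, marked in capitals, and for the genes that ran most and among the least with the rest of the set, Psmc1 and Psme3, in which neither this element nor a GC box was found in that stretch.
Psmb5, chr14:54617996-54618095, minus strand: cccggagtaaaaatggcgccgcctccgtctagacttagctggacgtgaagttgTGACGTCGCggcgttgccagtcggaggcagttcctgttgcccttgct
Psmb6, chr11:70525257-70525356, plus strand: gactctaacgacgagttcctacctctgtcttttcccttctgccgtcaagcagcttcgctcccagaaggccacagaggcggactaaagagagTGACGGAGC
Psmc1, chr12:100110102-100110201, plus strand: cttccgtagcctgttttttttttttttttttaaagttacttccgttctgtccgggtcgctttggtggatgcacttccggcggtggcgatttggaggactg
Psme3, chr11:101316113-101316212, plus strand: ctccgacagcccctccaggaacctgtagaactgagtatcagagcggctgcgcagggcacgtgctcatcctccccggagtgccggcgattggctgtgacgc

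A probe set was tested where the highest of its 3 tissue means reached a signal of 242, the median over all probe sets, which 43 of the 45 proteasome genes did. Psma8, the alpha subunit of the testis, and Psmb11, the beta subunit of the thymus, did not. The tested genes were 7 alpha subunits, 8 beta subunits, 6 ATPases, 14 non-ATPase genes, 3 activators, the inhibitor Psmf1 and 4 assembly chaperones.
The highest signal on an array, where the scale ends, ran from 34084 to 50092 among liver arrays, from 19007 to 45410 among kidney arrays and from 16761 to 38492 among brain arrays. In kidney and brain it was mostly higher in mice numbered 1, with medians of 38089 and 36687 against 23484 and 19326 in mice numbered 2. Among mice numbered 1, the brain arrays of mottled 1 (23262) and heavily mottled 1 (24990) and the kidney array of mottled 1 (22991) lay within the range of the mice numbered 2. The ratio of the 3′ to the 5′ probe set of Gapdh, a sign of RNA integrity, was lower in mice numbered 1, with log2 medians of -0.46 against -0.29 in liver, -0.37 against -0.28 in kidney and -0.40 against -0.33 in brain. Markers of liver, kidney and brain cells matched the tissue labels, with log2 differences for liver minus brain of -9.66 for Snap25, a synaptic protein, and 10.8 for Fgb, a plasma protein.

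Most proteasome genes had their highest signals in liver and their lowest in brain. For liver against kidney of the same mice, 32 of the 43 genes were called higher (28.5% of all tested probe sets) and Psmd3 and Psmd10 lower (42.4%). Called means a Benjamini-Hochberg adjusted p under 0.05 in limma over all 22519 tested probe sets. The median difference was 0.50 for these genes and -0.13 for all tested probe sets, on the log2(signal + 16) scale that all differences here use. For liver against brain, 37 were called higher (38.1% of all) and Psmc5 and Psmd14 lower (46.4%), with a median of 0.76 against -0.15. For kidney against brain, 26 were called higher (40.9% of all) and 5 lower (38.6%), with a median of 0.30 against 0.03. In all, 30 genes were called higher in liver than in both other tissues, and 20 ran liver above kidney above brain with each step called. The shares of all tested probe sets with these joint patterns are not given here. The counts therefore do not show whether the patterns were particular to these genes. In whole tissue, fewer cells of a type and less RNA per cell cannot be told apart.
Differences called at a size of at least 1 were found in 0 genes for liver against kidney (9.85% of all were higher and 18.6% lower by that much), 13 for liver against brain (20.4% and 30.2%) and 3 for kidney against brain (20.7% and 21.9%). Quantile normalisation over all arrays moved the median of all tested probe sets to -0.04, 0.05 and 0.11. That of these genes moved to 0.33, 0.57 and 0.19, with 28 called higher and 2 lower, 34 and 2, and 23 and 8. The shares of all tested probe sets called in this setting are not given here, so these counts have no background beside them.

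**Figure D1:**
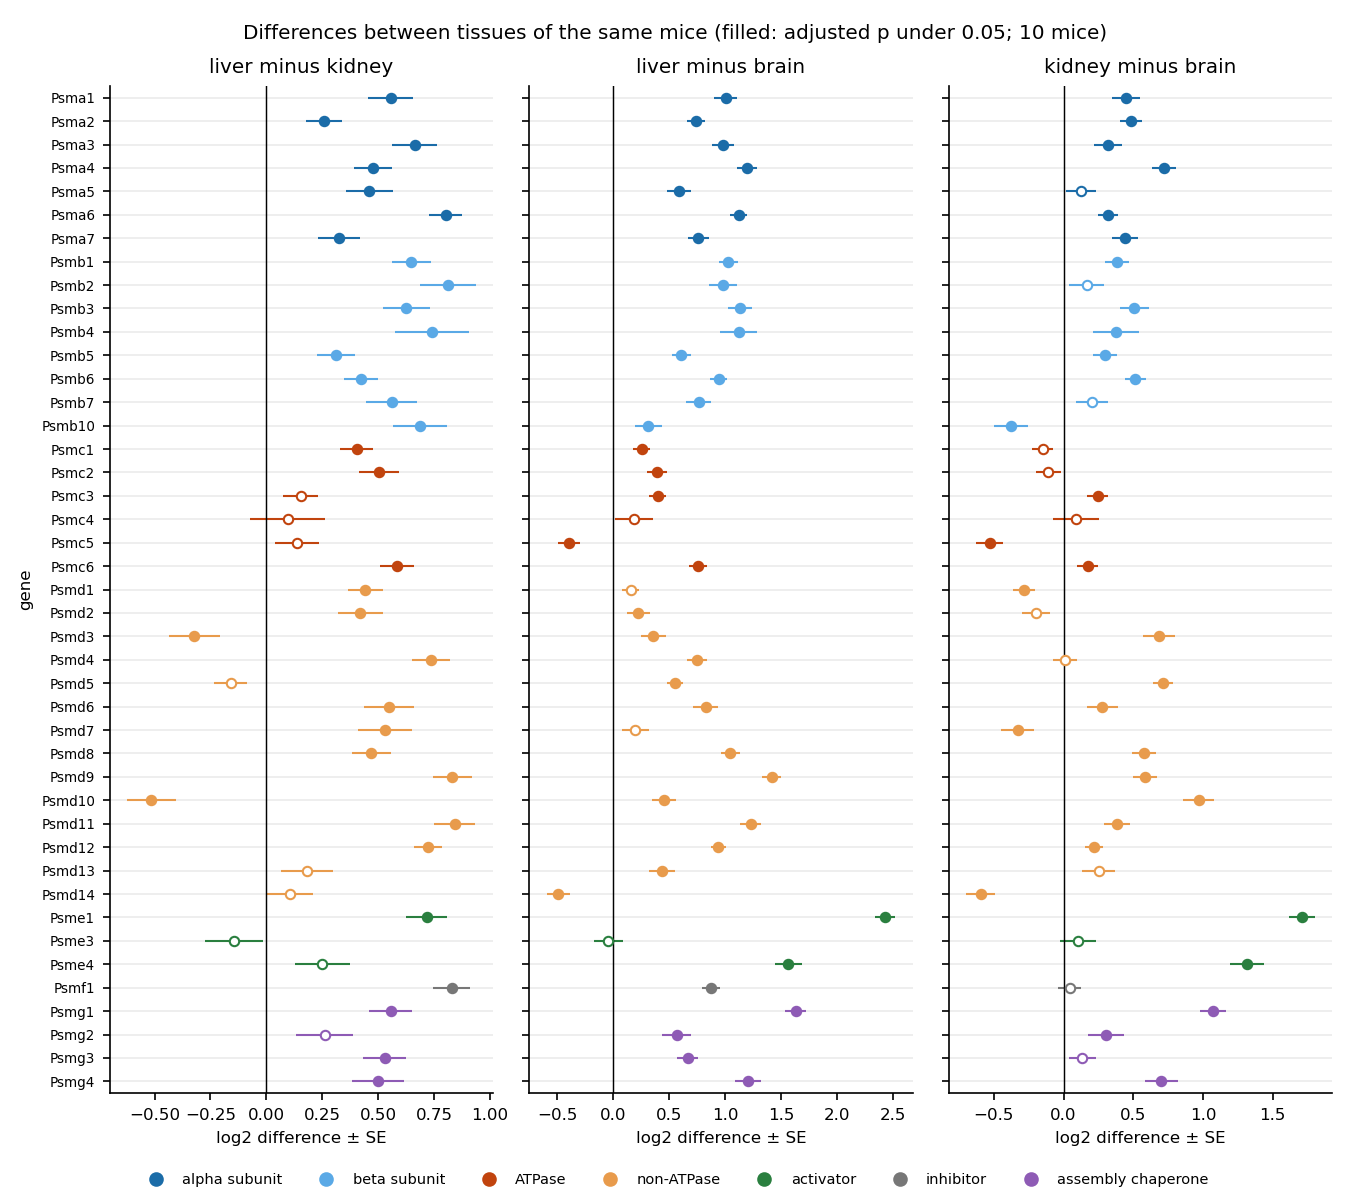
Log2 differences between tissues of the same 10 mice for the 43 tested proteasome genes, with SE, coloured by role and filled where adjusted p was under 0.05. Nearly all points lie right of 0 in the liver minus brain panel, and Psme1 reaches 2.42 there.

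Alpha and beta subunits form the rings of the core. All 7 alpha and all 8 beta subunits were higher in liver than in kidney, and all 15 higher in liver than in brain. Psma4, a gate subunit, had liver signals of 6403 to 10001 with a median of 8204, kidney signals of 4318 to 6914 with a median of 5760, and brain signals of 2714 to 4365 with a median of 3510. The liver and brain ranges do not overlap, and liver exceeded brain by 1.20 ± 0.086 (SE, n = 10 mice, adjusted p = 1.58e-12). Psma6 had the largest alpha difference between liver and kidney, 0.80 ± 0.074 (adjusted p = 4.66e-10).
Of the constitutive cutting subunits, Psmb5 (chymotrypsin-like) exceeded brain by 0.61 ± 0.084 in liver, Psmb6 (caspase-like) by 0.94 ± 0.076 and Psmb7 (trypsin-like) by 0.76 ± 0.112 (adjusted p = 2.9e-07, 1.64e-11 and 8.48e-07). Over kidney, liver was higher by 0.31 ± 0.084, 0.42 ± 0.076 and 0.56 ± 0.112. Kidney over brain was called for Psmb5 and Psmb6 (0.30 and 0.52) but Psmb7 had 0.20 ± 0.112 (adjusted p = 0.101). After quantile normalisation over all arrays, liver minus kidney was 0.09 for Psmb5 and 0.17 for Psmb7 (adjusted p = 0.209 and 0.0733), and liver minus brain was 0.08 for Psmb7 (adjusted p = 0.414). Psmb2 showed the largest beta difference between liver and kidney, 0.81 ± 0.125, and Psmb3 the largest between liver and brain, 1.13 ± 0.104.
Psmb10, which takes the place of Psmb7 in the immunoproteasome, broke the order, with liver first, brain second and kidney last. Its signals were 899 to 1846 in liver, 787 to 1159 in brain and 576 to 886 in kidney, and kidney was below brain by 0.38 (estimate -0.38 ± 0.120, adjusted p = 0.00652). Psmb8 and Psmb9, the other 2 immunoproteasome subunits, had mean signals of 984 ± 334 and 634 ± 168 in liver, 431 ± 60.2 and 278 ± 59.0 in kidney, and 75.0 ± 25.1 and 50.0 ± 31.7 in brain (SD, n = 10), so that Psmb10 alone of the 3 kept its brain level above its kidney level. Summed signals of 7 measured leukocyte, macrophage and microglia markers ran from 10187 to 13961 across liver arrays, from 6234 to 10502 across kidney arrays and from 7239 to 11375 across brain arrays, by median the same order as Psmb10, and their part in it was not tested. Csf1r made up most of the sum, with means of 7320, 4663 and 6686 in liver, kidney and brain. Of the 6 tested markers, Csf1r, C1qa, Aif1 and Cd68 were lower in kidney than in brain, like Psmb10, while Ptprc (1.68) and Lyz2 (2.10) were higher.

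The ATPases of the cap were less uniform. Liver exceeded kidney in 3 of 6 and brain in 4 of 6, 1 of which, Psmc2, had -0.17 after quantile normalisation. Psmc6 differed most, by 0.58 ± 0.077 and 0.76 ± 0.077. Psmc5 ran the other way against brain, at -0.39 ± 0.099 in liver and -0.53 ± 0.099 in kidney (adjusted p = 7.58e-04 and 2.77e-05), with brain signals of 2539 to 4497 against 1721 to 3337 in liver. Psmc4 had no called tissue difference with its strongest probe set, with estimates between 0.09 and 0.18 and SE of 0.167. Its second probe set gave 0.55 ± 0.082 for liver minus kidney and 0.57 ± 0.082 for liver minus brain (adjusted p = 1.66e-06 and 6.32e-07).
Of the 14 non-ATPase genes, liver was called above kidney in 9 and below it in 2, and above brain in 11 and below it in 1. Psmd14, the deubiquitinase that strips the tag from the substrate, was highest in brain, at 3800 to 6872 against 2782 to 3843 in liver, a difference of -0.49 ± 0.104 for liver minus brain (adjusted p = 1.36e-04). Psmd10 and Psmd3 were highest in kidney: Psmd10, a chaperone of cap assembly also called gankyrin, had signals of 595 to 941 in kidney, 284 to 776 in liver and 296 to 503 in brain, and kidney exceeded brain by 0.97 ± 0.109. Psmd9, another chaperone of the cap, had the largest liver over brain difference of this group, 1.42 ± 0.087 (adjusted p = 5.75e-14), and Psmd11, a lid subunit, the largest over kidney, 0.84 ± 0.093.

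Against brain, the activators spread over the widest range of the roles, from -0.04 to 2.42 for liver minus brain. Psme1, a subunit of the cytosolic activator that interferon induces, had liver signals of 4481 to 7455, kidney signals of 3070 to 4100 and brain signals of 868 to 1205. No value in one tissue reached the range of the next, and the differences were 2.42 ± 0.090 for liver minus brain and 1.71 ± 0.090 for kidney minus brain (adjusted p = 1.63e-18 and 3.71e-15). Psme4, the activator known from chromatin and sperm development, had brain signals of 1084 to 1468 and exceeded these by 1.56 ± 0.121 in liver and 1.31 ± 0.121 in kidney. Psme3, the nuclear activator, had mean signals of 919 ± 445 in liver, 989 ± 333 in kidney and 924 ± 346 in brain (SD, n = 10), with differences of -0.15, -0.04 and 0.10 and SE of 0.130 for liver minus kidney, liver minus brain and kidney minus brain. None of the 3 was called (adjusted p = 0.317, 0.76 and 0.468, limma).
Psmf1, which binds the core and was named as its inhibitor, was higher in liver than in kidney and brain by 0.83 ± 0.081 and 0.87 ± 0.081, while kidney minus brain was 0.04 ± 0.081. All 4 assembly chaperones were higher in liver than in brain, led by Psmg1 at 1.63 ± 0.094 with signals of 1719 to 2872 against 533 to 957. Psmg4 followed at 1.20 ± 0.117. Psme3ip1, which matched the symbol pattern only by name, was lower in liver than in brain (-0.38 ± 0.086).
The 34 symbols listed for the wider pathway, chosen by role and including some alternative names of the same gene, had 22 that were measured and tested. Liver was called above kidney in 8 of these and below it in 9, liver against brain split 8 to 8, and kidney was above brain in 5 and below it in 11. Pomp, the chaperone that matures the core, exceeded kidney by 0.58 ± 0.090 and brain by 0.72 ± 0.090 in liver. Nfe2l1 was lower in liver by 0.96 and 1.37 (estimates -0.96 ± 0.104 and -1.37 ± 0.104). It was 1 of 3 tested genes listed as transcription factors and their activation. The other 2 were called higher in liver than in brain, by up to 2.36, and were not called against kidney.

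Within each tissue many of the genes, but not all, tended to rise and fall together from mouse to mouse. After each tissue's mean was removed, the Pearson correlation of a gene with the mean of the other 42 had a median of 0.65 over the 30 arrays, 0.63 in liver, 0.75 in kidney and 0.65 in brain. With the mean of each number removed as well, these medians were 0.53, 0.32, 0.44 and 0.71, so that the liver and kidney values fell by over 1.5 times. For the 12043 other genes, the correlation with the mean of the proteasome genes had medians of -0.12, -0.13, -0.17 and -0.05. Over 0.5 lay 27 of the 43 genes across all arrays, and 9.55% of the other genes. By tissue it was 28 in liver, 29 in kidney and 25 in brain, beside 13.1%, 18.4% and 17.3% of the others. Below 0 lay 7, 5 and 4 of the 43, beside 59.2%, 59% and 53.4%. Single pairs of the 43 genes were less close, with a median r of 0.34, 0.42 and 0.36, beside 0.01 in each tissue for pairs of all tested genes. Of the pairs, 67%, 75.9% and 70.5% had r above 0. These points share arrays and a common scaling, so no p-value was given. The spread itself was modest: the SD over mice had a median of 0.26 in liver, 0.27 in kidney and 0.22 in brain for these genes, and 0.32, 0.31 and 0.30 for all tested probe sets.

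**Figure D2:**
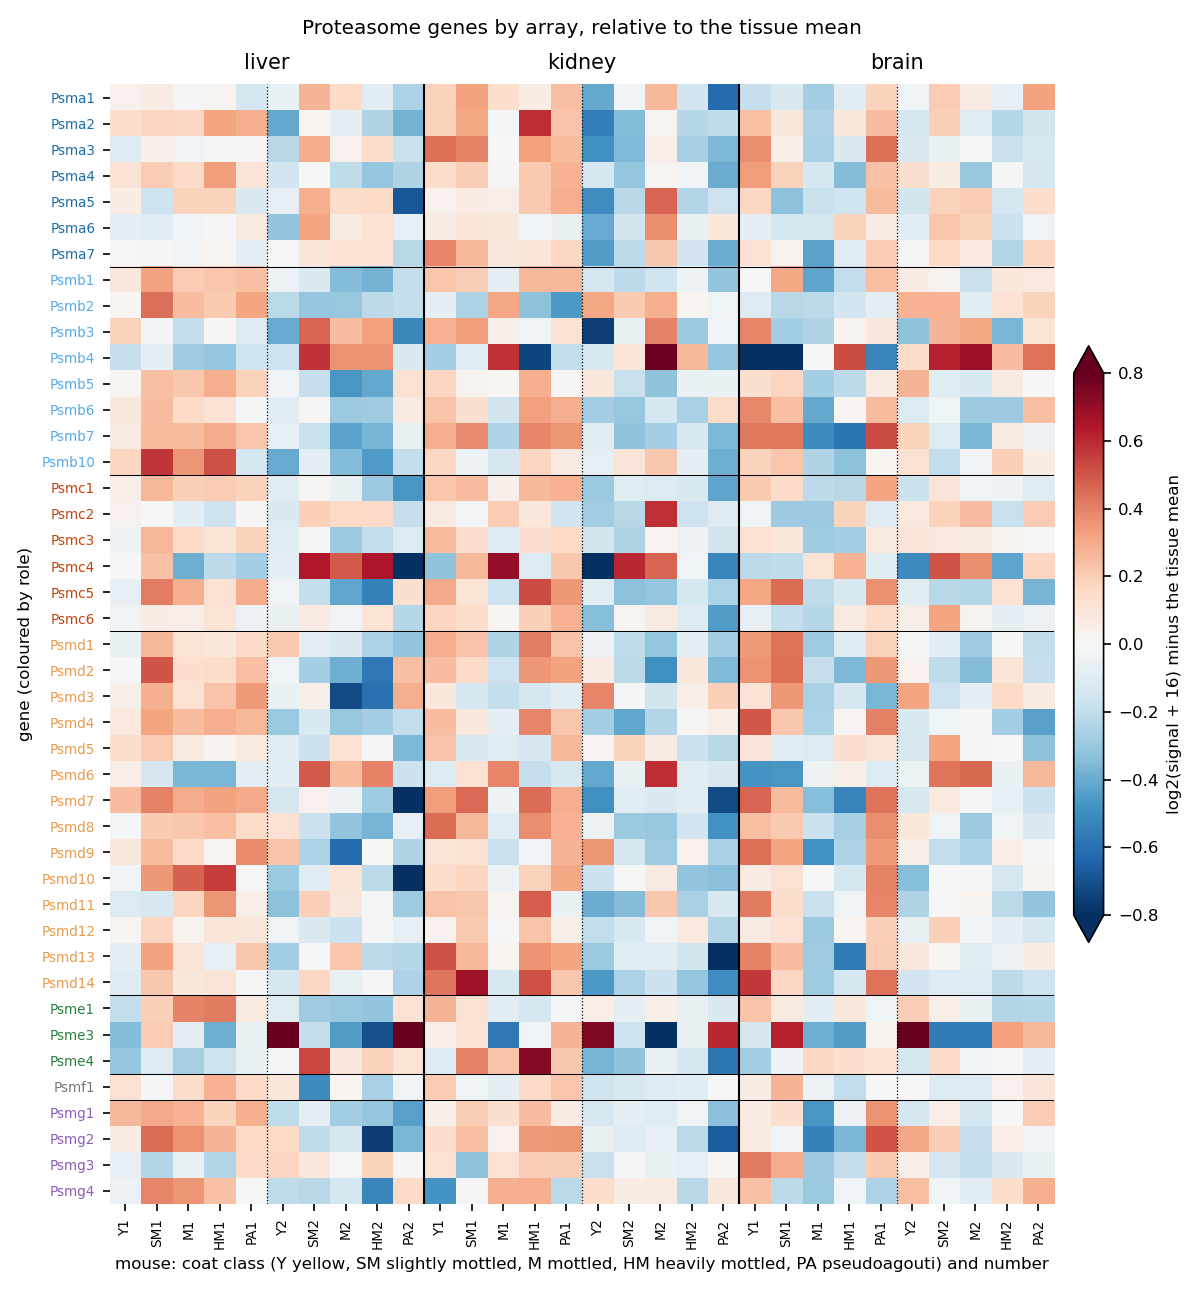
Log2(signal + 16) minus the tissue mean for each of the 43 genes (grouped by role, names coloured) in each of the 30 arrays, with mice numbered 1 left of the dotted line in each tissue. Liver and kidney are mostly red left of it and blue right of it, brain columns M1 and HM1 are mostly blue, and Psmb4, Psmc4, Psmd6 and Psme3 stand out.

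Psmc1, an ATPase, ran closest to the rest with r = 0.93 over all arrays and 0.86 to 0.97 by tissue. Psma4, Psmd7, Psmb1 and Psmc3 followed at 0.86, and Psmg1 at 0.82, so that ring, cap and chaperone genes were all among the best followed. The cutting subunits had 0.54 (Psmb5), 0.68 (Psmb6) and 0.80 (Psmb7), Psmb10 had 0.63, Psme1 had 0.40 and Psmf1 had 0.43. By role, the mean of each group correlated with the genes outside it at 0.76 for alpha subunits, 0.79 for beta subunits, 0.77 for ATPases, 0.87 for non-ATPases, 0.77 for chaperones and 0.09 for the 3 activators.
Some genes followed the rest in one tissue more than in another. Psma1 and Psma3 had 0.84 and 0.96 in kidney but 0.29 and 0.20 in liver. Psmb2 had r = 0.83 in liver but -0.65 in kidney, and Psmd3 had 0.53 and -0.69. Psme4 had 0.84 in kidney and -0.46 and -0.45 in liver and brain. Below 0 over all arrays lay Psmb4 (-0.43), Psmd6 (-0.20) and Psme3 (-0.20). Of these, Psmd6 was above 0 in kidney (0.16) and Psme3 in brain (0.20).
Outside the set, the genes that ran most with the mean of the proteasome genes were Tmem208 (r = 0.94), Ndufs4 (0.94), Timm13 (0.93), Atp5l (0.93) and Ssr4 (0.92), over 30 arrays and 12043 genes searched.

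The mean of the 43 genes ran alike in liver and kidney but not in brain. Across the 10 mice, r between liver and kidney was 0.77 (Spearman 0.72), 0.63 without the 2 mice farthest from the median, and 0.13 once the mean of each number was removed. Between liver and brain r was 0.03 (Spearman 0.09), and between kidney and brain 0.17 (Spearman 0.10). Without mottled 1 and heavily mottled 1, a choice made after the data were seen, these became 0.76, 0.74 and 0.68. In brain the lowest means were those of mottled 1 (-0.24) and heavily mottled 1 (-0.11), the 2 brain arrays of mice numbered 1 whose highest signal was low, while the other 3 had 0.07 to 0.17. Within tissues the mean of the 43 genes correlated with the log2 of the highest signal at 0.22 in liver, 0.84 in kidney and 0.49 in brain, and with the Gapdh ratio at -0.72, -0.79 and -0.54 (10 arrays each). The part of either in the shared movement was not tested.

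**Figure D3:**
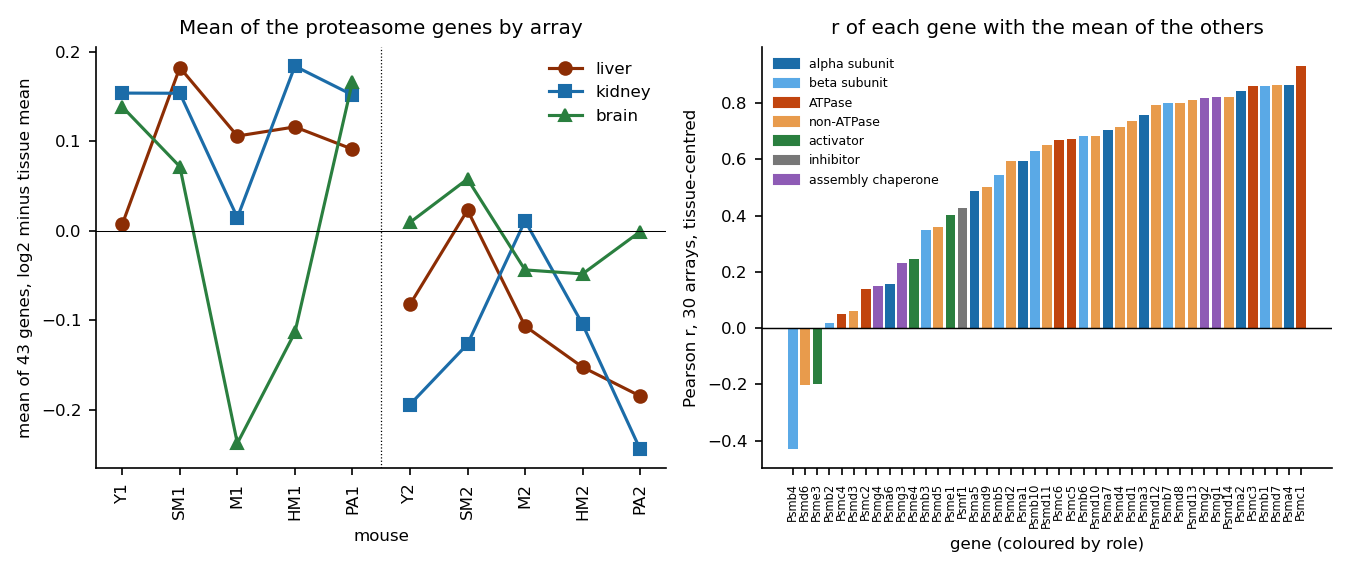
Left, mean of the 43 genes by array as log2 deviation from the tissue mean, with mice in order of coat class within each number. Right, Pearson r of each gene with the mean of the others over 30 tissue-centred arrays: Psmc1 is highest at 0.93 and Psmb4 lowest at -0.43, with Psmd6 and Psme3 also below 0.

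Mice numbered 2 mostly had lower proteasome signals than mice numbered 1. On the mean of the 3 tissues, 12 of the 43 genes were lower in number 2 and 1 higher, where 6.31% of all tested probe sets were lower and 7.78% higher. The median difference was -0.18, against 0.02 for all. The 12 were Psma2, Psma4, Psmb7, Psmc1, Psmc5, Psmd2, Psmd4, Psmd7, Psmd8, Psmd10, Psmd14 and Psmg1, and 37 of the 43 estimates were below 0. The largest fall was that of Psmd7, a lid subunit paired with Psmd14, at -0.45 ± 0.128 (adjusted p = 0.035), and the smallest adjusted p that of Psmd4, a ubiquitin receptor of the cap, at -0.39 ± 0.073 (adjusted p = 0.00692). Within roles the estimates ran from Psma2 to Psma6 (0.01) for alpha subunits, from Psmc5 to Psmc2 (0.07) for ATPases, from Psmd7 to Psmd6 (0.25) for non-ATPases and from Psmg2 (-0.27) to Psmg4 (-0.03) for chaperones. Psma2 fell by 0.37, Psmb7 by 0.34, Psmc5 by 0.39 and Psmg1 by 0.27. Psmb5, Psmb6 and Psmb10 had -0.18, -0.25 and -0.21 (adjusted p = 0.153, 0.0884 and 0.0873), Psme1 had -0.17 and Psme4 -0.09. With the highest signal or the Gapdh ratio of each array as a covariate, 0 of the 43 were called (limma; 0 and 6 at an unadjusted p under 0.05), beside 0% of all probe sets. Without yellow 1 or without slightly mottled 1 the count was 3, without pseudoagouti 1 it was 4, without heavily mottled 2 or pseudoagouti 2 it was 7, and without mottled 1 it was 18. Here and below, counts with a single mouse left out are given without the share over all tested probe sets. They do not show whether a change was particular to these genes.

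By tissue, 9 genes were called lower in number 2 in liver (5.13% of all tested probe sets), 8 in kidney (3.46%) and 0 in brain (0.75%; limma, 6 genes at an unadjusted p under 0.05). By limma 0 were called higher in each, beside 4.72%, 3.86% and 1.22% of all. Psmc1 shows it. In liver its signals were 2604, 3032, 2877, 2898 and 2860 in mice numbered 1 and 2347, 2526, 2427, 2057 and 1813 in mice numbered 2, in the order yellow, slightly mottled, mottled, heavily mottled, pseudoagouti. Every mouse numbered 1 was above every mouse numbered 2, and the difference was -0.36 ± 0.105 (adjusted p = 0.0487). In kidney its signals were 2219, 2252, 1955, 2272 and 2302 against 1544, 1770, 1754, 1746 and 1411, again without overlap (-0.42 ± 0.104, adjusted p = 0.0396). In brain they were 2435, 2341, 1816, 1804 and 2619 against 1863, 2257, 2057, 2043 and 1964, and the groups overlapped because mottled 1 and heavily mottled 1 were lowest.
Such separation with number 1 on top held for 10 genes in liver, 6 in kidney and 0 in brain, beside 4.88%, 2.73% and 2.54% of all tested probe sets. The reverse held for Psme4 in liver and for 0 genes in kidney and brain, beside 5.01%, 3.36% and 2.96%. Psma2, Psma4, Psmc1, Psmb1, Psmb2, Psmb7, Psmb10, Psmd4 and Psmg1 were called in liver, and Psma2, Psma3, Psmc1, Psmd7, Psmd8, Psmd13, Psmd14 and Psme4 in kidney. Without mottled 1 and heavily mottled 1, brain gave 12 genes lower and 2 higher (10.8% and 11.6% of all), liver called 1 gene, Psmg1 (1.07% of all were lower), and kidney 11 (6.73% lower and 7.98% higher). With the Gapdh ratio as a covariate 0 were called in liver and kidney (limma; 14 and 12 at an unadjusted p under 0.05), beside at most 0.0533% of all. With the highest signal as a covariate, liver had 15 lower and 2 higher (6.72% and 6.21% of all), and kidney 0 (0 at an unadjusted p under 0.05). In kidney, 0 were called when yellow 1, slightly mottled 1, heavily mottled 1, pseudoagouti 1, yellow 2, slightly mottled 2 or pseudoagouti 2 was left out, 12 without mottled 2, 5 without heavily mottled 2 and 19 without mottled 1. In liver the count was 5 without mottled 1 or heavily mottled 1, 6 without slightly mottled 1 or heavily mottled 2 and 13 without pseudoagouti 2.

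**Figure D4:**
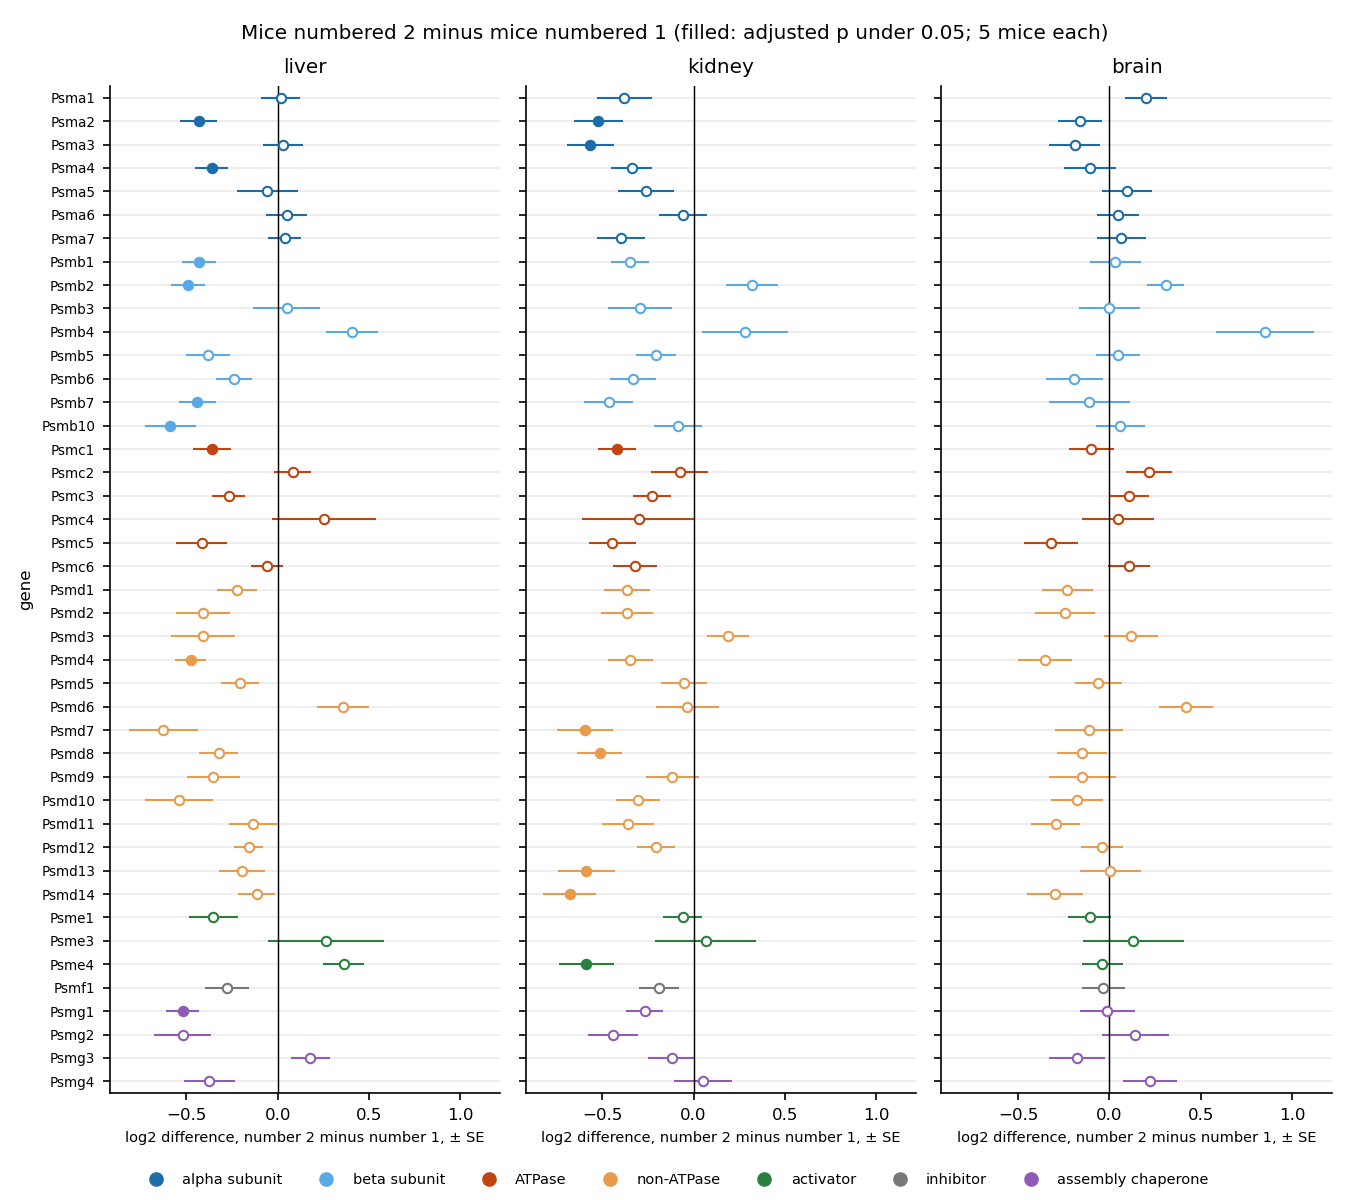
Log2 difference of mice numbered 2 minus mice numbered 1 for each gene and tissue, with SE, 5 mice in each group, filled where adjusted p was under 0.05. Filled points lie left of 0 in liver and kidney, there are none in brain, and Psme4 lies on opposite sides of 0 in liver and kidney.

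By the interaction test, the number difference itself varied by tissue in 2 of the 43 genes. This share of 4.65% was not above the 4.94% called among all tested probe sets. Psme4 was higher in number 2 in liver, with 3857, 5663, 4158, 4431 and 4203 against 3148, 3631, 3237, 3476 and 3748, and lower in kidney, with 2525, 2615, 3143, 2988 and 2185 against 3055, 4315, 3842, 5442 and 3805. The liver groups do not overlap and the kidney groups overlap at 1 pair of mice. The differences were 0.36 ± 0.111 in liver, -0.59 ± 0.152 in kidney and -0.04 in brain (limma interaction test, adjusted p = 0.00356). These values come from the strongest of 3 tested probe sets of Psme4. The other probe sets correlated with it at 0.48 and 0.42, and their differences by tissue are not given here. Psmb2, a structural beta subunit, had -0.49 ± 0.094 in liver, 0.32 ± 0.144 in kidney and 0.31 ± 0.101 in brain (interaction adjusted p = 0.00869).
Of the 22 tested pathway genes, 1 was higher in number 2, Txnl1, a thioredoxin-like protein of the cap, at 0.28 ± 0.073 (adjusted p = 0.0236), and 0 lower (limma). Single genes of several marker lists were called for the number as well. Of all 22519 tested probe sets, 3172 were called on the mean of tissues and 1650 within kidney. On the mean of tissues, 1 of 6 kidney markers was lower in number 2, Kap at -0.49 ± 0.147 (adjusted p = 0.04), and within kidney 2 of 6 were, Kap at -0.77 and Umod, a tubule protein, at -0.60, with a median of -0.54 over the list. In the other direction, 1 of 6 brain markers, Syt1 at 0.31, and 1 of 2 tested red cell markers, Slc4a1 at 0.61, were higher on the mean of tissues (limma, adjusted p = 0.0143 and 0.0149). The other 5 brain markers and the other red cell marker had estimates below 0 there. Syt1 was also higher within kidney at 0.82 (limma, adjusted p = 0.0396). Of 4 interferon response genes 1 was lower, Ifit3 at -0.50, and on the mean of tissues limma called 0 of 5 liver, 0 of 6 leukocyte and 0 of 8 heat shock genes, of which 0, 1 and 2 had an unadjusted p under 0.05. Their part in the number differences of the proteasome genes was not tested.

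Coat class gave no called difference. The slope per step from yellow (0) to pseudoagouti (4) was called in 0 of the 43 genes on the mean of tissues or in any tissue, with 0 at an unadjusted p under 0.05 in each (limma), beside at most 0.00444% of all tested probe sets. The largest slopes on the mean of tissues were -0.06 ± 0.062 for Psmd7 and 0.03 ± 0.036 for Psme4, and Psme3 had -0.02 ± 0.090. The interaction of coat and tissue was called in 0 genes as well, with 0 at an unadjusted p under 0.05.

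Over all 10 mice without regard to number or class, 7 of the 43 genes differed between mice by the moderated F-test with tissue as a covariate, beside 6.8% of all tested probe sets. They were Psma2, Psmb6, Psmd1, Psmd4, Psmd7, Psmd9 and Psme3, with adjusted p from 0.00507 (Psme3) to 0.0489 (Psmd1). With the mean of each number removed within tissue, or with either array measure as a covariate, the sole gene still called was Psme3 (adjusted p = 0.0296 for the first), beside 0.417%, 0.888% and 0.48% of all. Without pseudoagouti 1 or without yellow 2 Psme3 was again the sole call, and without yellow 1, slightly mottled 1, mottled 2 or pseudoagouti 2 it was joined by Psma2 alone. The count was 4 without slightly mottled 2, 13 without heavily mottled 1, and 17 without mottled 1 and heavily mottled 1 (12.2% of all).

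Psme3 joined 3 features: no called tissue difference (shared with the strongest probe set of Psmc4 but not with its second), a difference between mice that was still called with the number removed, and r = -0.20 with the other genes (shared with Psmb4 and Psmd6 in sign). Its probe set 1418078_at was high in yellow 2 in each tissue and in pseudoagouti 2 in liver and kidney. Liver signals of mice numbered 1, in the class order above, were 663, 977, 800, 642 and 813, and of mice numbered 2 they were 1561, 738, 615, 513 and 1872. Kidney signals were 975, 1018, 625, 917 and 1133, and 1575, 835, 475, 900 and 1435. Brain signals were 790, 1349, 660, 636 and 889, and 1593, 585, 584, 1100 and 1051.
Yellow 2 was above all mice numbered 1 in each tissue, while mottled 2 was among the lowest 2 in each, so the number groups overlapped throughout, and the number difference was 0.15 ± 0.244 (adjusted p = 0.711). The highest and lowest mouse differed by 1.48 on the mean of tissues. The ratio R, taken here as the mean SD over mice divided by the mean SD over tissues, was 1.99, the fifth highest of the 22519 tested probe sets. The series description looks for genes with R above 1.5 but gives no formula. The next proteasome gene by R was Psmc4 at 1.36, and the median was 0.53, against 0.42 for all. The genes most like this probe set were Man1b1 (r = 0.94), Scaf1 (0.92), Ptov1 (0.89), Tpcn1 (0.87) and Maz (0.87).

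A second tested probe set of Psme3, 1418079_at, gave a different account of the mice. Its liver signals were 587, 810, 623, 683 and 768 in mice numbered 1 and 601, 478, 434, 417 and 495 in mice numbered 2. Kidney had 966, 905, 474, 913 and 826 against 502, 477, 406, 431 and 378, and brain 842, 1020, 441, 513 and 983 against 568, 508, 484, 512 and 515. Here yellow 2 and pseudoagouti 2 were not the highest mice in any tissue. Most mice numbered 1 were above those numbered 2, but yellow 1 was below yellow 2 in liver, mottled 1 was below yellow 2 and slightly mottled 2 in kidney and lowest in brain, and heavily mottled 1 was below yellow 2 and pseudoagouti 2 in brain.
This probe set ran with the proteasome genes at r = 0.79 and with 1418078_at at 0.24, and was lower in number 2 by 0.60 (estimate -0.60 ± 0.138, adjusted p = 0.0144). Its R was 2.1, the highest of all tested probe sets. It too differed between mice (adjusted p = 0.00578), but not with the mean of each number removed (adjusted p = 0.206). In both probe sets the spread over mice exceeded that over tissues, but the mice that were high were not the same. Which transcripts each of them reads was not settled here.

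**Figure D5:**
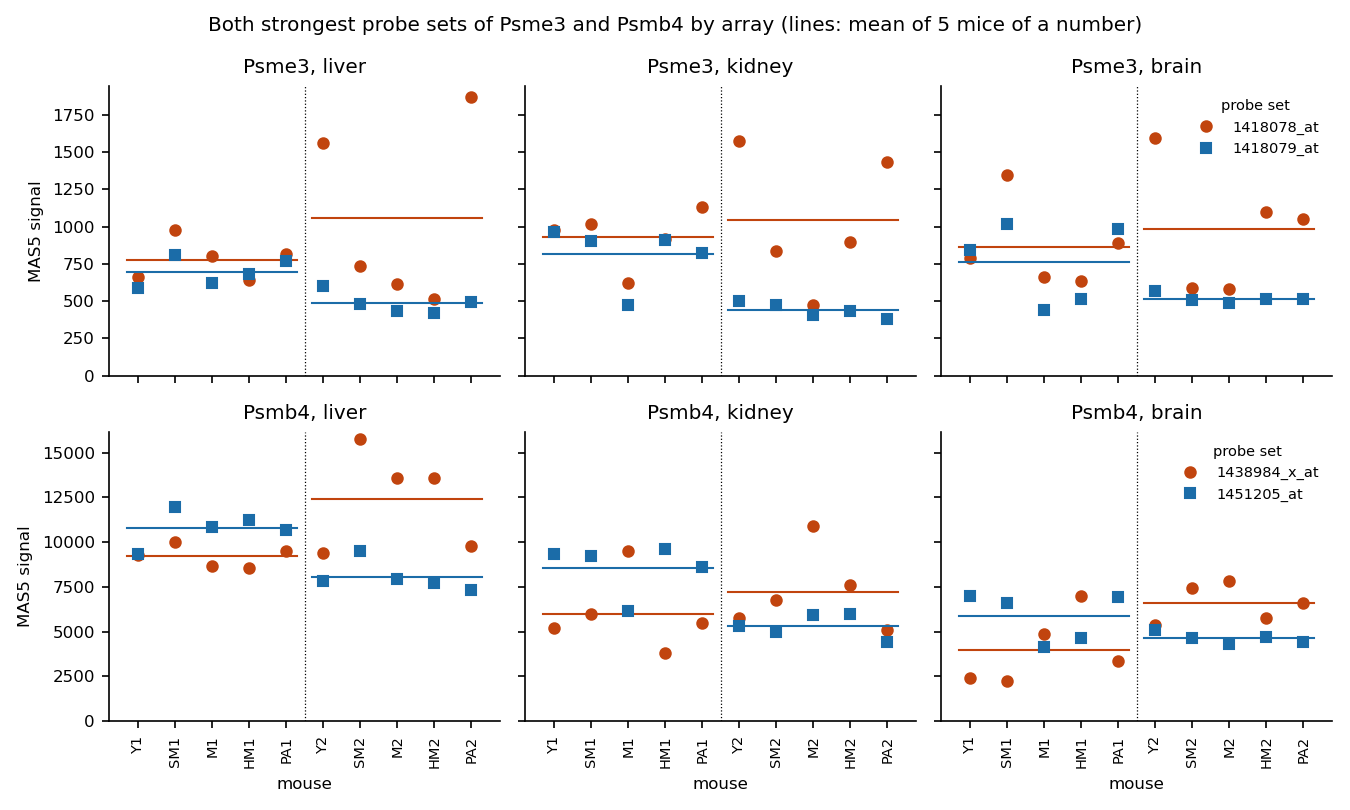
MAS5 signals of both strongest probe sets of Psme3 (upper) and Psmb4 (lower) in each array, with lines at the mean of the 5 mice of each number. The red points of Psme3 are highest in Y2 in kidney and brain and in PA2 in liver, while the means of the blue points are lower in number 2, as are those of Psmb4, whose red points go the other way.

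Several other genes that ran apart also had probe sets that differed. Of 17 genes with at least 2 tested probe sets, the 2 strongest correlated above 0.5 in 2, below 0 in 7, and at a median of 0.24. Psmb4, a structural beta subunit, was the sole gene higher in number 2, by 0.51 ± 0.136 (adjusted p = 0.0257), with 1438984_x_at, whose suffix marks probes that can match other transcripts. Its liver means were 9197 ± 612 in number 1 and 12416 ± 2737 in number 2 (SD, n = 5). With 1451205_at the means were 10806 ± 970 and 8055 ± 832, r with the other genes was 0.94 in place of -0.43, and the number difference was -0.47 ± 0.089 (adjusted p = 0.00733).
Psmd6, a lid subunit, moved from r = -0.20 to 0.81 with its second probe set, Psmc2 from 0.14 to 0.85 and Psmc4 from 0.05 to 0.69, while Psma6 stayed at 0.16 and 0.19. Of the 9 genes with r under 0.2, 6 had a second tested probe set, and 5 of these had r above 0.2. The strongest probe sets of Psmb4, Psmd6, Psmc4 and Psmc2, chosen after their values were seen, correlated with one another at 0.52 to 0.85, and with 1418078_at of Psme3 at -0.74 to -0.46. The second probe sets of the same 4 genes correlated with one another at 0.53 to 0.89, and with 1418079_at of Psme3 at 0.75 to 0.92. Second probe sets did not always lie closer to the rest: those of Psmb1, Psmd11, Psmf1 and Psmc6 had r = -0.56, -0.54, -0.48 and -0.13. With the second probe set taken wherever a gene had one, 18 genes were lower and 3 higher in number 2. These were read from the same fit, in which 3172 of all 22519 tested probe sets were called in either direction. The use of second probe sets was chosen after the data were seen.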

How the data were processed

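The authors hybridised liver, kidney and brain RNA of 10 mice to 30 one-colour arrays. The deposited values are MAS5 intensities, per the submitters' processing notes, scaled by the authors so that the mean with 2% trimmed from each end is 500 on every array. Of 45101 probe sets, 64 controls were left out, 34945 carry 1 gene symbol in the platform annotation, 932 several and 9160 none. The number of arrays limits the precision.
Values were taken as log2(signal + 16) and fitted in limma 3.58.1 (R 4.3.3) with lmFit and trended eBayes over the 22519 probe sets whose highest tissue mean reached 242, with Benjamini-Hochberg adjustment over all of them. Tissues were compared with the mouse as a block. Differences between mice used a moderated F-test with tissue as a covariate. Number and coat class (0 for yellow to 4 for pseudoagouti) were fitted on the mean of the 3 tissues per mouse and within each tissue. Nothing in the labels says that mice of one number share a litter, batch or day, so number was not used as a pairing. The 2 mice of a class are separate animals, 5 per number. The fits were tested on simulated data.
Coordination is the Pearson correlation of a gene with the mean of the other 42, tissue means removed, without p-values. Genes are named by role: the largest difference in each role and comparison, the extremes of coordination, the catalytic subunits and Psme3. The members, lists and rules were chosen with earlier results of these data known. Alternatives were other offsets, filters, normalisations and probe sets, covariates for array quality and leaving out each mouse. Leaving out mottled 1 and heavily mottled 1, and using the second probe set, were chosen after seeing the data.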

Additional observations from a re-analysis of the deposited data

Results flagged for a closer look

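Pseudoagouti 2 lay far below the other 9 mice in liver for 3 genes, by the gap to the next mouse relative to the range of the group. Psmd7, a lid subunit, had 560.8 there, with the next mouse at 1032. Psma5, an alpha subunit, had 4550, with the next at 6484. Psmc6, an ATPase, had 3564, with the next at 3992. These were 3 of 129 gene and tissue groups (2.33%), where chance gives about 1 in 20.
The number difference varied between tissues in Psme4 (interaction adjusted p = 0.003563) and in Psmb2 (interaction adjusted p = 0.008695), by limma. These were 2 of 43 genes (4.65%), near the share among all tested probe sets, where 1113 of 22519 were called.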

How the results depend on the processing

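Calls at a difference of at least 1 numbered 0, 13 and 3 for liver against kidney, liver against brain and kidney against brain. Leaving out each mouse gave 34 to 36, 37 to 40 and 27 to 32 calls of either direction. Differences between mice were called in 2 genes with no filter, in 1 with the replicate block (number removed within tissue, or number as a term), in 1 with the highest signal and 1 with the Gapdh ratio as a covariate, in 17 without mottled 1 and heavily mottled 1, and in 1 to 13 without each mouse. Number on the mean of tissues gave 0 with either covariate, 21 with the second probe set (3 higher, 18 lower) and 3 to 18 without each mouse. In liver it gave 17 with the highest signal, 0 with the Gapdh ratio, 1 without the 2 mice and 5 to 13 without each mouse. In kidney it gave 0 with no filter (limma; 25 at an unadjusted p under 0.05), 0 with either covariate, 13 with the second probe set and 0 to 19 without each mouse. In brain it gave 1 with the mean of probe sets, 1 with probe sets without shared-sequence suffixes, 1 with the second probe set, 14 without the 2 mice and 0 to 1 without each mouse. The interaction of number and tissue gave 2 to 4 without each mouse, and coat slopes gave 0 in each alternative run (limma; at most 3 at an unadjusted p under 0.05). Second probe sets were read from the main fits. For number, these called 3172 of all 22519 tested probe sets on the mean of tissues, 1650 in kidney and 444 in brain. The cause of the changes between settings was not tested.
The median correlation over 30 arrays was 0.5345 with number removed (the replicate block), 0.5378 after quantile normalisation within tissue, 0.5859 without the 2 mice and 0.6101 to 0.6781 without each mouse. With number removed it was 0.321 in liver and 0.4433 in kidney. In brain it was 0.5181 after quantile normalisation and 0.7604 with the second probe set. Without each mouse the liver value ranged from 0.5313 to 0.7157, the kidney value from 0.696 to 0.8397 and the brain value from 0.572 to 0.6739.
Signs reversed for Psmc2 (-0.1671) and Psmd2 (-0.06923), liver against brain, after quantile normalisation over all arrays, for Psmb1, kidney against brain, with the mean of probe sets (-0.07577) and without suffixed probe sets (-0.1612), for Psmd11, kidney against brain, without suffixed probe sets (-0.0802), and for Psmb4, number, with its other probe set in both settings that use it (-0.4679). Of the gene-level comparisons, 3940 stayed called in the same direction or stayed uncalled, 456 lost the call and 38 gained it. Direction was checked only where the main run called the gene.
Class profiles of the number difference correlated over pairs of classes between 0.13 and 0.39 for liver, 0.01 and 0.53 for kidney, and -0.01 and 0.51 for brain. The 10 pairs per tissue share classes. The labels do not say what the number stands for, and its meaning was not tested. Signal near background limits genes such as Psmb9 in brain.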
